A study of Mus musculus with 4 samples.

Results

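Insm1, Dscaml1, Synpo2, Tmem150c, Prph, Ankrd33b, Slco5a1 and Cacnb3 are 8 mouse genes, mostly described in neurons, neuroendocrine or muscle cells, that were picked because their RNA rose as splenic type 1 conventional dendritic cells (cDC1) matured. They are 8 of the 55385 genes in the count matrix, and each symbol had a single row. The cells came from spleens of wild-type (WT) C57BL6 mice at steady state, with no other genotype or treatment in the series. The study's stated interest was the course of homeostatic, tolerogenic cDC1 maturation, followed with RNA and surface protein counts in the same cells. Dendritic cells of 2 mice were enriched and stained with 160 barcoded antibodies plus 9 isotype controls. Sorted cDC1 (50000 to 60000), type 2 conventional dendritic cells (cDC2, 10000) and random live cells (10000) were loaded on a 10x 3′ droplet system. There were 2 libraries, called library 1 and library 2 here after the barcode suffix, and the labels do not say whether each library is 1 mouse.

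Conventional dendritic cells exist in a resting form that samples tissue and a mature form that carries antigen to T cells. Maturation switches on the chemokine receptor Ccr7, which guides the cell to T cell zones, and the actin-bundling protein Fscn1, which accompanies the long processes of mature cells. cDC1 carry the receptor XCR1 and excel at presenting antigen to CD8 T cells, whereas cDC2 carry CD172a and mainly address CD4 T cells. Maturation takes place in both lineages, also without infection.

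The 8 genes have different textbook roles. Cacnb3 encodes the β3 auxiliary subunit of voltage-gated calcium channels. Insm1 is a zinc-finger transcriptional repressor needed by neuroendocrine cells and neuronal progenitors. Prph encodes peripherin, an intermediate filament protein of peripheral neurons. Synpo2, also called myopodin, binds actin and is best known from muscle. Dscaml1 is an immunoglobulin-family adhesion molecule that spaces neurites in the developing retina. Tmem150c, also called tentonin 3, has been described with mechanically activated currents in sensory neurons. Slco5a1 belongs to the organic anion transporter family, and Ankrd33b carries ankyrin repeats.

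On the mouse genome build GRCm38.p6 (RefSeq annotation), 3 of the 8 genes lie on chromosome 15, namely Ankrd33b at chr15:31291479-31367802, Cacnb3 at chr15:98628436-98644536 and Prph at chr15:99053579-99058978. Cacnb3 and Prph lie 409 kb apart. The others are spread over the genome, with Slco5a1 at chr1:12866549-12992796, Insm1 at chr2:146221997-146225020, Synpo2 at chr3:123076519-123236168, Tmem150c at chr5:100077872-100165607 and Dscaml1 at chr9:45427433-45753713.

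The 250 bases before an annotated start were read from RefSeq (GRCm38.p6) for 5 of the 8 genes, namely Ankrd33b, Cacnb3, Prph, Synpo2 and Tmem150c, in 8 windows because some have several starts. 4 windows are printed because the RNA of these genes rose in late mature cDC1 as a class while their upstream sequences differ. Each runs 5′ to 3′ on the gene's strand, in lower case. A match to the κB motif of NF-κB proteins (GGGRNNYYCC, on either strand) is in capitals. In motifs, R is A or G, Y is C or T, and N is any base.
Prph, chr15:99054924-99055173, plus strand: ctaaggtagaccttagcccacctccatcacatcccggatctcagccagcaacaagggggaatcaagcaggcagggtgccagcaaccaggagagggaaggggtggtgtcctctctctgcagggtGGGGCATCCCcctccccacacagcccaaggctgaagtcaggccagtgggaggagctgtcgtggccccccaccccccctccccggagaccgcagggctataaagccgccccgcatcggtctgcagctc
Cacnb3, 1 of 2 listed starts, chr15:98632078-98632327, plus strand: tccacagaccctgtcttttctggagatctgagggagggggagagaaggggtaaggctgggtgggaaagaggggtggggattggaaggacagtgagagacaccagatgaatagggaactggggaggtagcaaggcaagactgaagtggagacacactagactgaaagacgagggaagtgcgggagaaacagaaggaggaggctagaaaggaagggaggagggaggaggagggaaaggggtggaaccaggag
Ankrd33b, chr15:31367760-31368009, minus strand: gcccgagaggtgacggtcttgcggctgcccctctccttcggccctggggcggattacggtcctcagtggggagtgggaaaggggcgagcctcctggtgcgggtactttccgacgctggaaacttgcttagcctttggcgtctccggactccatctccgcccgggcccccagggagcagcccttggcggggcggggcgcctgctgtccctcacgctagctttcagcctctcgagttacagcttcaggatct
Tmem150c, 1 of 3 listed starts, chr5:100159576-100159825, minus strand: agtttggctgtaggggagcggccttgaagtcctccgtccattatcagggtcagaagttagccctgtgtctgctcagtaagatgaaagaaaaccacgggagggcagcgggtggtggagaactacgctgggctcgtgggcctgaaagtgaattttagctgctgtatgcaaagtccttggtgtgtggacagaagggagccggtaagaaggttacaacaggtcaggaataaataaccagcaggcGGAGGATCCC
The Prph match began 127 bases before the start and reads on the gene's strand. The Tmem150c match began 10 bases before the start and fits the motif on the opposite strand only. The same Tmem150c site also falls in the overlapping window of another listed start. The printed windows of Prph, Cacnb3 and Tmem150c lie inside the gene spans given above, which begin further upstream. The windows of Ankrd33b, Cacnb3 and Synpo2 held no κB match. A κB match was present in 7.25% of all 32851 mouse windows of this length, on either strand. None of the 8 windows held the AP-1 motif (TGANTCA, in 6.75% of all windows) or the RE1 motif of the neuronal repressor Rest (in 0.0548%). At such low shares, absence from 8 windows cannot tell these genes from others. Base composition varied as well, against medians of 52.4% GC and 6 CpG over all windows. GC ran from 53.2% in the printed Tmem150c window to 73.6% in that of another Tmem150c start, which held 26 CpG. The printed Cacnb3 window had 56% GC and the fewest CpG, 2, while that of its other start had 70.4% and 23. The Ankrd33b window had 66.4% GC and 19 CpG. A match of letters is not a binding site, and the motifs were chosen after the data had been seen.

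Cells were placed by antibody counts into cDC1 and cDC2 (at least 2 unique molecules, UMIs, of XCR1 or CD172a and at least 2 times the other). Both also needed at least 20 RNA UMIs of H2-Aa, H2-Ab1 and Cd74 together and under 3 UMIs of every other-cell marker list. Each lineage was then staged by RNA. Resting cells had 0 Ccr7 UMIs, intermediate cells at least 2 Ccr7 UMIs with at most 1 of Fscn1, and late mature cells at least 5 of Ccr7 with at least 2 of Fscn1. After filtering, 12166 cells of library 1 and 15976 of library 2 were kept, from matrices of 99617992 and 129565040 RNA UMIs in all. Resting cDC1 numbered 5549 and 8361, intermediate cDC1 188 and 230, and late cDC1 136 and 174. The same stages of cDC2 held 1476 and 1643, 343 and 313, and 86 and 102 cells. The libraries shared 41 barcodes among the kept cells. Late cells were shallower than resting ones in cDC1, with a median of 5574 and 5722.5 UMIs against 9038 and 8050, and late cDC2 were shallower still at 3541.5 and 3163.5.

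Antibodies outside the gates separated the late lineages. Surface CD11b, a cDC2 protein, averaged 3.35 and 2.64 UMIs per cell in late cDC1 and 43.1 and 27.3 in late cDC2, and surface CD8a 55.0 and 58.3 against 11.6 and 12.8. The RNA separated them less fully. The summed level of 8 cDC2 marker genes was 120.5 and 122.3 counts per 1000000 UMIs (CPM) in late cDC1 and 1655 and 1662 in late cDC2. The summed level of 8 cDC1 marker genes was 1604 and 2456 in late cDC1 and 761.5 and 1349 in late cDC2. Xcr1 RNA itself stood at 28.6 and 122.4 CPM in late cDC2 and 101 and 140.2 in late cDC1. The cDC2 tests below were therefore repeated without cells that held any XCR1 antibody or Xcr1 RNA UMI. Summed markers of 8 other cell types were low in late cDC1, the highest being B cell markers at 21.8 and 25.9 CPM.

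All 8 genes were at under 2 CPM in resting cDC1 and at over 50 CPM in late cDC1 in both libraries. Because the genes were picked for this rise, their cDC1 values are a description and carry no test. Levels are summed UMIs per 1000000 UMIs of the class in a library. UMIs are counted at transcript ends and not per length, so levels are compared between cell classes within a gene, not between genes.

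**Figure D1:**
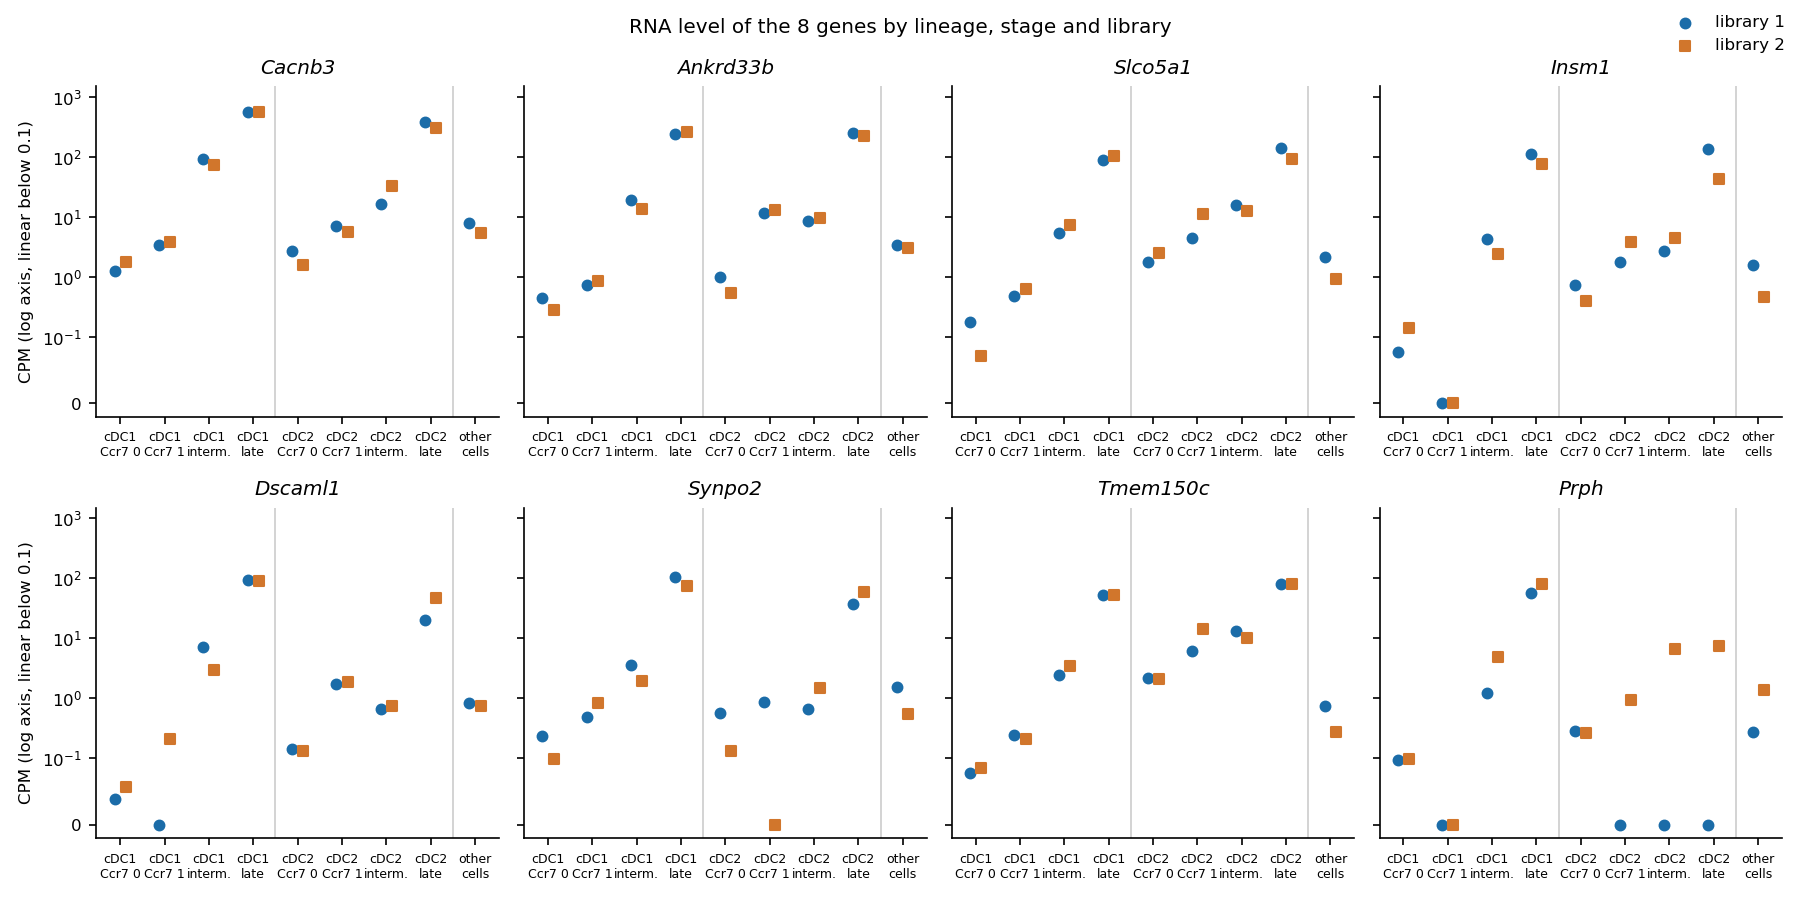
RNA level of each of the 8 genes in CPM (log axis, linear below 0.1) in cDC1 and cDC2 by stage and in all other cells together, with 1 point per library and no error bars. The late cDC1 points sit above every other cDC1 stage in both libraries for all 8 genes. Late cDC2 points are the highest of their lineage for 7 genes in both libraries, and the library 1 point of Prph is at 0.

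Among the genes of channels, transport and adhesion, the calcium channel subunit gene Cacnb3 stood at 1.26 and 1.76 CPM in resting cDC1, 90.1 and 71.5 in intermediate cDC1 and 545.1 and 561.6 in late cDC1. Late cDC1 were 433 times the resting level in library 1 and 319 times in library 2. Cacnb3 was thus already well above the resting level at the intermediate stage, and the other genes were above rest there too. The transporter gene Slco5a1 went from 0.174 and 0.0709 CPM through 5.44 and 7.25 to 89.5 and 100.9. Tmem150c, the tentonin gene, went from 0.0775 and 0.0851 CPM through 2.42 and 3.38 to 51.6 and 52.7. The adhesion gene Dscaml1 stood at 0.0388 and 0.0568 CPM in resting cells, a total of 6 UMIs over both libraries, and at 94.1 and 90.2 in late cells, with 7.26 and 2.90 in between. For each of these 4 genes the lower late library lay above the higher intermediate one.

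The transcription factor gene Insm1 stood at 0.0775 and 0.142 CPM in resting cDC1, 4.23 and 2.42 in intermediate cDC1 and 110.2 and 74.1 in late cDC1. Ankrd33b, the ankyrin repeat gene, went from 0.446 and 0.284 CPM through 18.7 and 13.5 to 234.1 and 261.6. Both were low at the intermediate stage relative to their late level. Among the cytoskeletal genes, Synpo2 stood at 0.233 and 0.0993 CPM in resting cells, 3.63 and 1.93 in intermediate cells and 105.6 and 74.1 in late cells. Prph stood at 0.0969 and 0.0993 CPM, 1.21 and 4.83, and 57.4 and 79.5 in the same order. The 2 libraries gave the same order of stages for all 8 genes.

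The share of late cDC1 with at least 1 UMI differed widely between genes. Cacnb3 was detected in 91.9% of late cDC1 in library 1 (exact 95% binomial interval 86.0 to 95.9) and 89.7% in library 2 (84.1 to 93.8). Ankrd33b was detected in 70.6% (62.2 to 78.1) and 69.0% (61.5 to 75.8). The 2 libraries' intervals overlapped for each of these genes. Slco5a1 was found in 32.4% and 40.8% of cells, Synpo2 in 37.5% and 30.5%, Insm1 in 35.3% and 26.4%, Dscaml1 in 34.6% and 24.1%, and Tmem150c in 24.3% and 25.3%. Prph was found in 9.56% (5.19 to 15.8) and 13.2% (8.57 to 19.2), the smallest share of the 8. These intervals cover counting error only.

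Prph was concentrated in few cells. Its 50 and 89 UMIs in late cDC1 came from 13 and 23 cells, at a mean of 3.85 and 3.87 UMIs per positive cell, and the single highest cell held 11 and 15. Tmem150c, with 45 and 59 UMIs in the same cells, averaged 1.36 and 1.34 UMIs per positive cell and never exceeded 3 in a cell. Cacnb3, present in nearly all late cells, averaged 3.80 and 4.03. Peripherin RNA in late cDC1 thus came as several UMIs in a minority of cells, whereas tentonin RNA was spread over more cells at 1 to 3 UMIs each.

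Late cells are shallower than resting ones, so shares were also taken after thinning every cell to 3000 UMIs, which left out 6 and 14 late cDC1. Cacnb3 was then found in 75.4% and 78.8% of late cDC1, Ankrd33b in 46.9% and 52.5%, and Prph in 6.92% and 9.38%. The other 5 genes lay between 11.5% and 25.4%. In resting cDC1 at full depth, Cacnb3 was seen in 1.08% and 1.39% of cells and the other genes in at most 0.397%. T cells, which shared the droplet run, showed a Cacnb3 UMI in 1.30% and 0.424% at a lower median depth of 3107 and 2888.5 UMIs, and Ankrd33b in 0.354% and 0.141%. In T cells without Fscn1 the Cacnb3 shares were 0.604% and 0.284%. How much of the small share in resting cDC1 is free RNA was not tested.

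Sorting cDC1 by their Ccr7 count, without the Fscn1 condition, showed which genes were seen at low Ccr7. Cacnb3 was, with 20.3% and 9.09% of cells positive at 2 to 4 Ccr7 UMIs (69 and 99 cells), 35.4% and 29.6% at 5 to 9, 56.0% and 59.8% at 10 to 19, and 89.2% and 100% at 40 or more (37 and 35 cells). Ankrd33b was at 4.35% and 4.04% at 2 to 4 Ccr7 UMIs, 25.0% and 16.9% at 5 to 9, and 67.6% and 80% at 40 or more. Insm1 stepped from 2.90% and 2.02% to 14.6% and 9.86% between the same first bins and ended at 27.0% and 22.9%. Dscaml1 was seen mainly at higher counts, at 2.08% and 7.04% for 5 to 9, 14.3% and 9.76% for 10 to 19, and 35.1% and 25.7% for 40 or more. Prph was not seen at 1 to 4 Ccr7 UMIs in either library and was at 2.08% and 7.04% for 5 to 9. It was lower, at 1.19% and 3.66%, for 10 to 19 and reached 9.89% and 12.4% for 20 to 39. For genes seen in few cells even at the highest Ccr7 counts, a late start and a low detection rate cannot be told apart. Ccr7 counts also scale with a cell's depth.

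**Figure D2:**
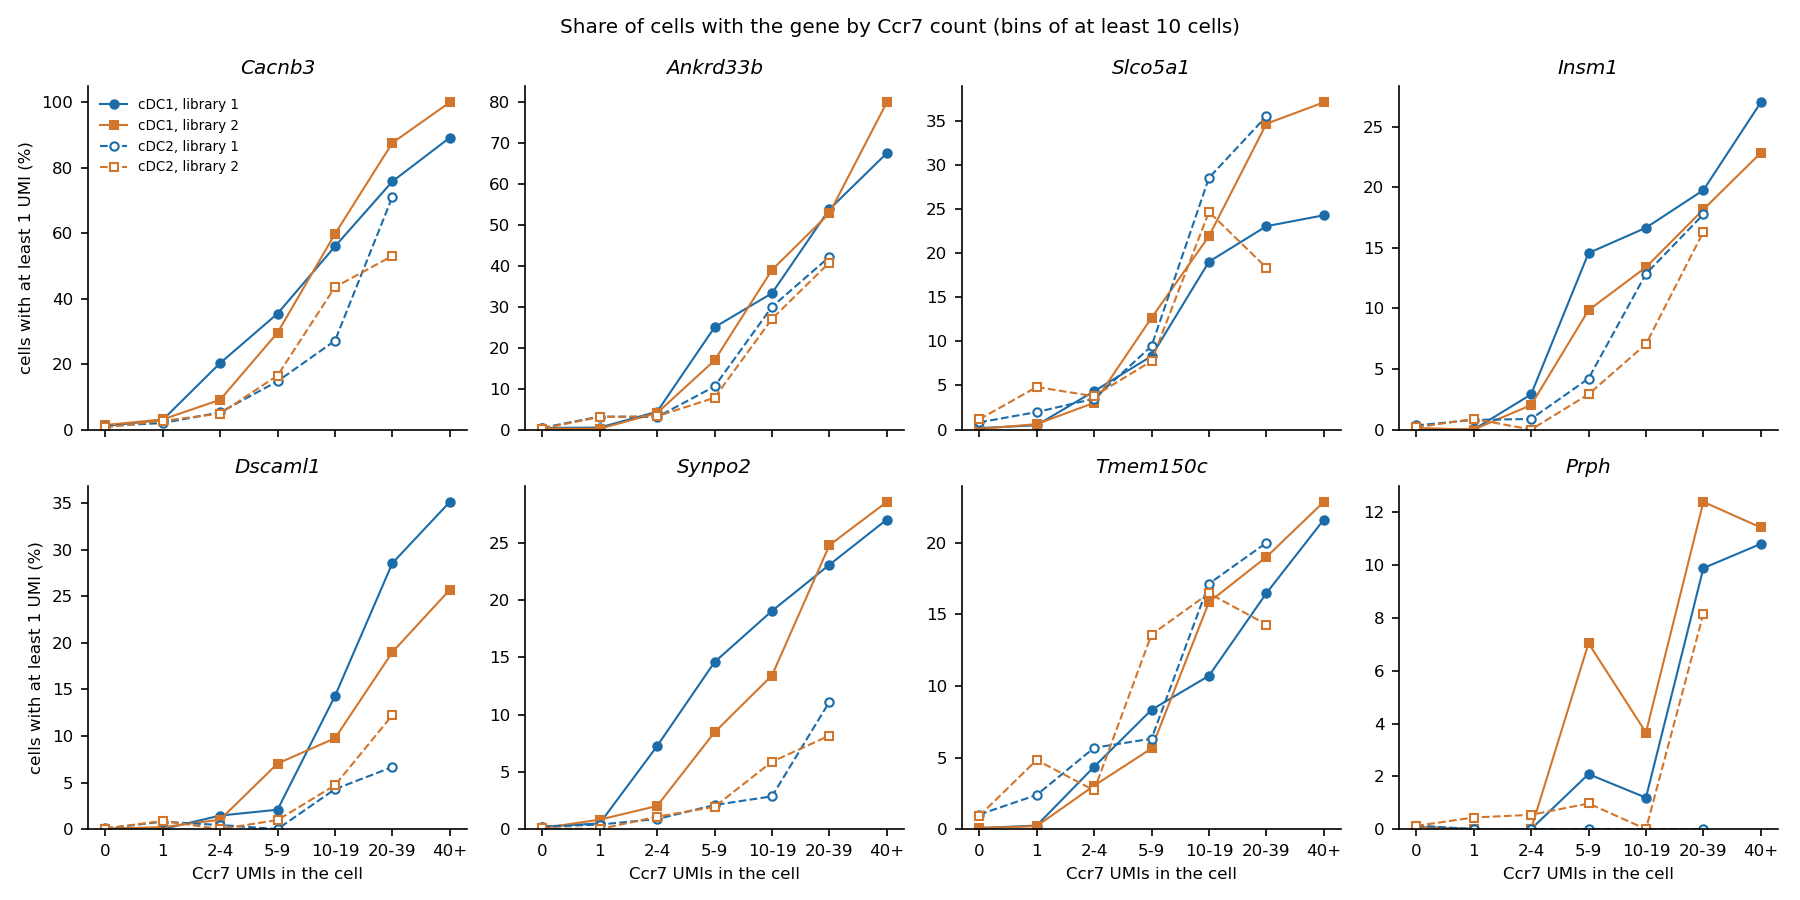
Share of cells with at least 1 UMI of each gene (percent) against the cell's Ccr7 count in bins, for cDC1 and cDC2 in each library, where cDC2 bins of 40 or more Ccr7 UMIs (7 and 3 cells) are not drawn. Cacnb3 climbs from the 2 to 4 bin on, while Prph stays at or below 7.04% until 20 Ccr7 UMIs in cDC1.

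Surface protein gave an order of cDC1 that used neither Ccr7 nor Fscn1 RNA. The genes were picked for their rise in mature cDC1 of these data, so a rise along this order is a description and no independent support. All cDC1 were ranked by the summed share of 5 maturation antibodies (CD63, CD83, CD86, CD274 and CD197, the Ccr7 protein). In late cDC1, CD86 gave the most of these counts, at 225.4 and 220.3 per 10000 antibody UMIs, and CD197 the fewest, at 5.57 and 3.62. Cacnb3 stood at 1.14 and 1.68 CPM in the lower 50% of the ranking, 47.5 and 37.6 between the percentiles 90 and 95, 108.6 and 129.8 between 95 and 98, and 336.5 and 215.9 in the top 2% (126 and 186 cells). Ankrd33b went from the lowest to the top bin from 0.403 and 0.102 to 137.7 and 109.5 CPM, and Insm1 from 0.0336 and 0.153 to 91.8 and 33.9. Prph reached 18.6 and 17.5 CPM between 95 and 98, and 24.7 and 12.6 in the top 2%. All 8 genes stood higher in the top 2% than in the lower 50% in both libraries. Their levels there were lower than in the RNA-staged late cells of the same library. Prph was found in only 4.76% and 2.15% of the top 2%. In library 2, Prph and Dscaml1 (29.9 to 27.6 CPM) were lower in the top 2% than between 95 and 98.

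cDC2 were not used to choose the genes, and there the stages were compared with edgeR's quasi-likelihood test on summed counts per stage and library, with library as a block and Benjamini-Hochberg adjustment over 9425 genes. 7 of the 8 genes were higher in late than in resting cDC2, against a background of 30.2% of all tested genes called in either direction, 16.7% called higher and 13.5% lower. Prph was the exception. It met the expression filter through its late cDC1 counts and not on the cDC2 sums alone, where the other 7 did, so its cDC2 values are given as counts with no test. The same 7 were called without the cDC2 that held any XCR1 antibody or Xcr1 RNA UMI, with log2 differences of 5.498 for Tmem150c to 8.31 for Dscaml1. The median log2 change over all tested genes was −0.07, and 55.3% of the called genes were higher, or 41% when counts were scaled by library totals alone. Each stage had 2 libraries of unstated animal origin, and the block removes a library difference that all stages share. The p-values therefore reflect only how unevenly the stages differed between those libraries, and that spread may be technical. It was estimated over the cDC1 and cDC2 sums together, so it also draws on the cDC1 sums used to choose the genes.

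Ankrd33b stood at 1.01 and 0.530 CPM in resting cDC2 and 249.0 and 217.9 in late cDC2, a log2 difference of 8.43 (SE 0.28, adjusted p = 2.62e-16). Cacnb3 stood at 2.73 and 1.59 CPM and at 380.7 and 298.7, a log2 difference of 7.48 (SE 0.27, adjusted p = 1.57e-15). In both genes the libraries lay close together at the late stage, and library 2 was the lower one at rest, where UMIs were few. Insm1 stood at 0.719 and 0.397 CPM and at 134.5 and 41.6, a log2 difference of 7.43 (SE 0.51, adjusted p = 7.63e-11). Its late level was much higher in library 1 than in library 2, and both late libraries were far above both resting ones. Slco5a1 stood at 1.73 and 2.52 CPM and at 137.4 and 93.0 (log2 difference 5.92, SE 0.34, adjusted p = 3.96e-12). Tmem150c stood at 2.16 and 2.12 CPM and at 80.2 and 78.3 (log2 difference 5.39, SE 0.35, adjusted p = 2.99e-11). These last genes had the smallest differences of the 7, from resting levels in cDC2 that were above those of resting cDC1.

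Synpo2 rose in late cDC2 from 0.575 and 0.133 CPM to 37.2 and 58.8 (log2 difference 7.31, SE 0.60, adjusted p = 1.74e-09). Dscaml1 rose from 0.144 and 0.133 CPM to 20.04 and 46.5 (log2 difference 8.03, SE 0.75, adjusted p = 1.53e-08). The resting level of Dscaml1 was 1 UMI in each library, so the size is poorly fixed, and the ratio of summed counts was 249 with an exact counting interval of 62.3 to 2163. Prph had 2 and 2 UMIs in resting cDC2 (0.288 and 0.265 CPM), 0 and 9 in intermediate cDC2 (0 and 6.55 CPM) and 0 and 3 in late cDC2 (0 and 7.34 CPM), and 5 of the 9 came from 1 cell. All Prph UMIs of intermediate and late cDC2 thus came from library 2. Taking 3 counts as the limit that a count of 0 allows, which is not the exact interval used for the other shares, 0 of 86 late cDC2 in library 1 allows a share of up to 3.49%.

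At the intermediate stage, 4 of the 8 genes, with Prph set aside, were called higher than in resting cDC2, against 10.2% of all genes in either direction, 7.11% higher and 3.1% lower. Ankrd33b stood at 8.58 and 9.47 CPM (log2 difference 3.60, SE 0.50, adjusted p = 2.55e-05) and Cacnb3 at 16.5 and 32.8 (3.56, SE 0.40, adjusted p = 1.48e-06). Slco5a1 stood at 15.8 and 12.4 CPM (2.78, SE 0.41, adjusted p = 5.04e-05) and Tmem150c at 13.2 and 10.2 (2.51, SE 0.39, adjusted p = 9.83e-05). These 4 genes were higher than at rest in both libraries. Insm1 (2.66, SE 0.86, adjusted p = 0.0531), Dscaml1 (2.29, SE 1.64, adjusted p = 0.467) and Synpo2 (1.60, SE 1.26, adjusted p = 0.519) did not pass. Insm1 lay close to the threshold and its adjusted p ranged from 0.00899 with DESeq2 to 0.595 with Ccr7 and Fscn1 scaled to 7000 UMIs per cell.

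From the intermediate to the late stage, 7 of the 8 genes (without Prph, not tested) were higher in late cDC2, against 19.8% of all genes in either direction, 11.3% higher and 8.48% lower. Dscaml1 differed by 5.73 (SE 0.78, adjusted p = 7.96e-06) and Synpo2 by 5.70 (SE 0.66, adjusted p = 8.51e-07) on the log2 scale, on 2 and 3 UMIs at the intermediate stage. The ratios of summed counts were 49.6 for Dscaml1 (counting interval 12.4 to 431) and 47.0 for Synpo2 (14.9 to 238). Tmem150c (2.88, SE 0.33, adjusted p = 6.53e-07) and Slco5a1 (3.14, SE 0.32, adjusted p = 1.13e-07) differed least among those called. In cDC2, then, Ankrd33b, Cacnb3, Slco5a1 and Tmem150c were called at both steps, and Insm1, Dscaml1 and Synpo2 passed at the second step alone. Whether the steps differ in size was not tested.

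Late cDC1 and late cDC2 are given side by side, and the difference between the lineages was not tested, since the genes were chosen on cDC1. Prph stood at 57.4 and 79.5 CPM in late cDC1 and 0 and 7.34 in late cDC2, so the groups did not overlap. Cacnb3 (545.1 and 561.6 against 380.7 and 298.7), Dscaml1 (94.1 and 90.2 against 20.04 and 46.5) and Synpo2 (105.6 and 74.1 against 37.2 and 58.8) also had both cDC1 libraries above both cDC2 libraries. Tmem150c was the other way round (51.6 and 52.7 against 80.2 and 78.3). Ankrd33b, Insm1 and Slco5a1 overlapped between the lineages. The share of all genes whose libraries separate in this way was not counted, so the separation is not read as a result. After thinning to 3000 UMIs, Cacnb3 was detected in 50.8% and 50.9% of late cDC2 against 75.4% and 78.8% of late cDC1. Dscaml1 was detected in 6.56% and 8.77% against 25.4% and 16.3%, and Prph in 0% and 5.26% against 6.92% and 9.38%. Thinning left 61 and 57 late cDC2.

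A further 138 and 121 late mature dendritic cells passed neither lineage gate, with 0.949 and 1.28 XCR1 UMIs and 0.884 and 0.967 CD172a UMIs per cell. They carried 36.0 and 38.2 UMIs of CD8a and 5.26 and 4.27 of CD11b, nearer to late cDC1 than to late cDC2. All 8 genes were present in them. Cacnb3 stood at 636.7 and 647.5 CPM, Ankrd33b at 332.9 and 308.2, Insm1 at 150.6 and 108.2, and Prph at 70.9 and 126.2. Cacnb3 and Ankrd33b were above both late cDC1 libraries in both ungated ones, and Insm1 and Prph overlapped with late cDC1. Tmem150c, at 49.4 and 49.2, was slightly below late cDC1. Here too the share over all genes was not counted.

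Single late cDC1 carried several of the genes at once. At full depth a late cDC1 held a mean of 3.36 of the 8 genes in library 1 and 3.19 in library 2, and 0.735% and 2.30% of cells held none. The highest number in a cell was 7. After thinning to 3000 UMIs the mean was 2.36 and 2.37, with none in 6.15% and 8.13% of cells, at least 3 in 47.7% and 45.0%, and at least 5 in 6.92% and 6.88% (9 and 11 cells). Multiplying the separate shares of the genes, as if each cell drew them independently, gave 3.62% and 3.12% for none and 3.56% and 3.36% for at least 5. Both ends of the observed spread were therefore larger than the products. By contrast, 97.98% of resting cDC1 in each library, and 67.02% and 70% of intermediate cDC1, held none at full depth.

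**Figure D3:**
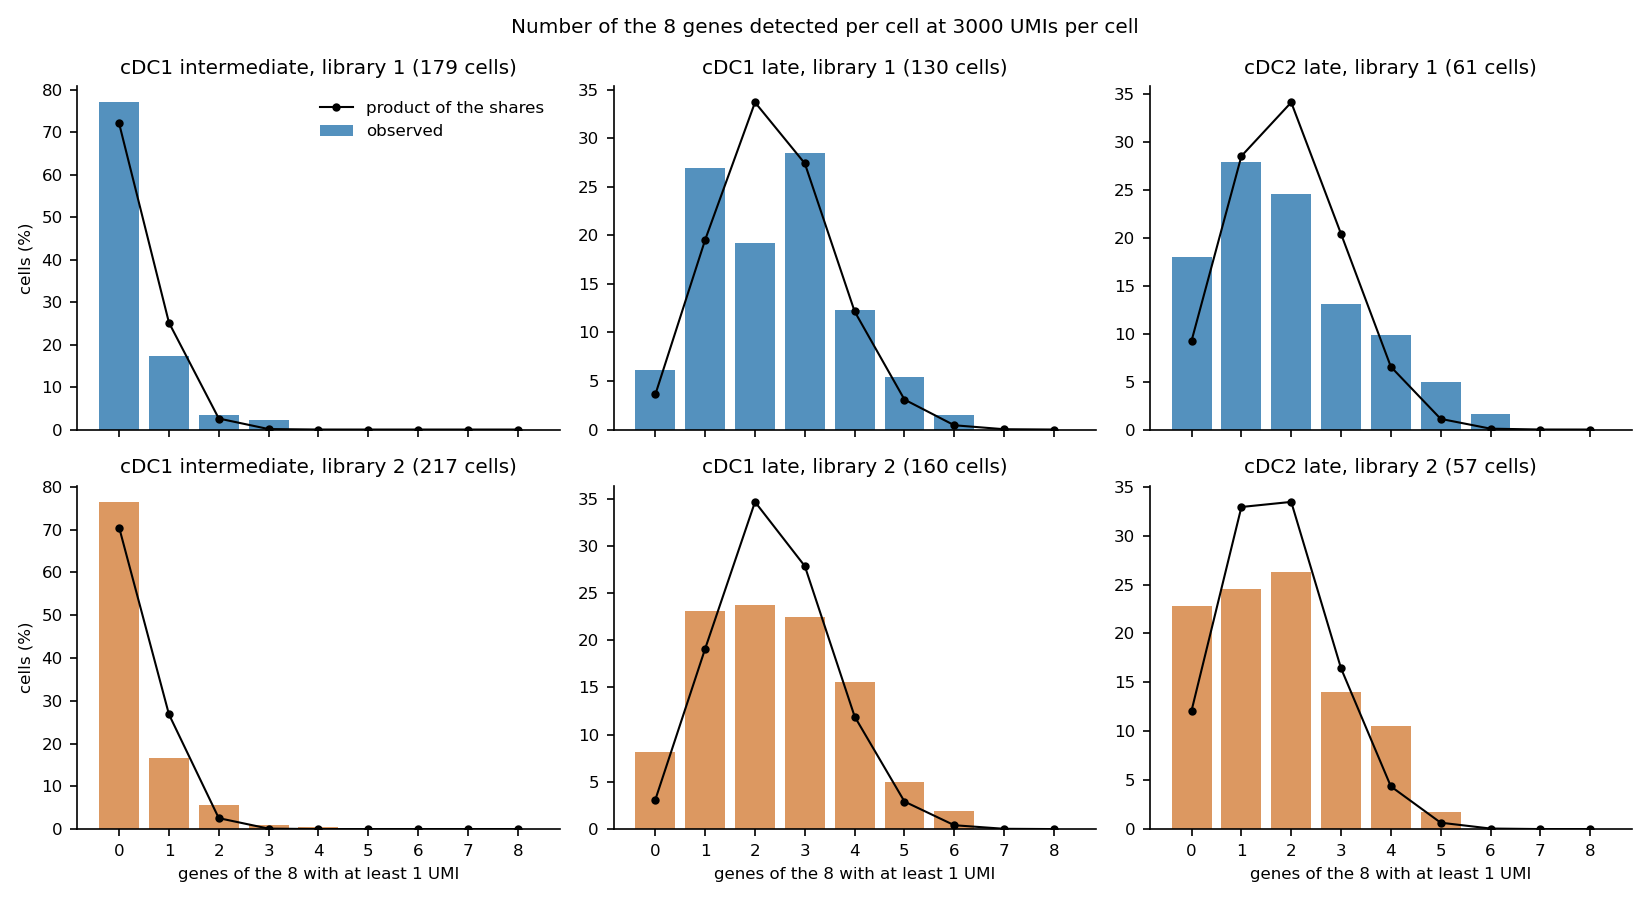
Share of cells (percent) by the number of the 8 genes with at least 1 UMI after thinning to 3000 UMIs, for intermediate cDC1, late cDC1 and late cDC2 in each library (bars), with the product of the separate shares as points joined by a line. Observed shares exceed the product at 0 genes and at 5 or more in both late classes of both libraries.

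In late cDC2 the thinned mean was 1.90 and 1.70 genes per cell, with none in 18.0% and 22.8% against products of 9.26% and 12.1%. Among the 28 pairs of genes in thinned late cDC1, 23 pairs in library 1 and 25 in library 2 had a product of at least 3 cells. The observed number of double-positive cells exceeded the product in 18 and 21 of them, with a median ratio of 1.13 and 1.19. Summed over the libraries, Insm1 with Tmem150c was seen in 13 cells against 7.59 by the product, Dscaml1 with Slco5a1 in 21 against 13.7, and Dscaml1 with Tmem150c in 11 against 7.38. At the other end, Insm1 with Prph was seen in 3 cells against 4.89 and Synpo2 with Prph in 4 against 5.68. These 2 pairs were the sparsest of those named, at numbers where 1 or 2 cells decide the ratio. Other pairs with Prph lay on both sides of the product. Prph with Slco5a1 was seen in 8 cells against 5.66, and Prph with Cacnb3 in 17 against 18.6. These are descriptions of 2 libraries, and how far cells differ in maturity was not separated from how far pairs go together.

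Late cDC1 with more of the genes (thinned) differed on the surface in CD63, a tetraspanin of late endosomes, in CD197 and in XCR1. Cells with 0 or 1 gene had 69.6 and 60.4 CD63 UMIs per 10000 antibody UMIs, those with 2 or 3 had 183.3 and 80.7, and those with 4 or more had 195.7 and 139.6. CD197, the Ccr7 protein, was at 2.77, 7.05 and 7.20 in library 1 and 2.38, 4.51 and 4.41 in library 2, so its lowest value was again in the cells with 0 or 1 gene. XCR1, the gating antibody, went the other way, with 34.7, 27.1 and 28.8 in library 1 and 40.5, 32.1 and 29.3 in library 2. CD197 counts were low, at a mean of 0.816 and 0.466 UMIs per late cDC1. CD86 showed no such order, at 222, 225.4 and 232 in library 1 and 224.3, 225.6 and 178 in library 2. Neither did CD274, at 57.8, 56.0 and 72.5 in library 1 and 76.6, 62.3 and 56.6 in library 2. CD83 stood at 13.0, 14.7 and 15.3 in library 1 and 11.1, 14.9 and 9.34 in library 2. CD8a was at 365.8, 401.5 and 340.8 in library 1 and 505.6, 440.2 and 382 in library 2. Thinned Ccr7 was 14.4, 14.2 and 16.3 UMIs per cell in library 1 and 12.1, 14.5 and 16.3 in library 2. The median depth fell over the same classes, from 7983 to 4981 UMIs and from 7008 to 5395.5, and its part in this order was not tested. The classes held 43, 62 and 25 cells in library 1 and 50, 74 and 36 in library 2.

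Outside the conventional dendritic cells the 8 genes were low. In 1875 and 1966 other cells pooled, 128 and 146 of them plasmacytoid dendritic cells, Cacnb3 stood at 7.91 and 5.36 CPM, Ankrd33b at 3.41 and 3.05, and each of the other 6 at 2.12 or less. In other cells with no Fscn1 UMI the levels were 2.80 and 2.86 for Cacnb3, 1.06 and 1.14 for Ankrd33b, and 0.193 and 0 for Prph. Of the pooled UMIs of both libraries, 59 of 144 for Cacnb3, 23 of 70 for Ankrd33b and 18 of 33 for Slco5a1 lay in cells without Fscn1. B cells had the highest Cacnb3 of the named types, at 36.5 and 22.4 CPM, or 13.3 and 14.1 without Fscn1-positive cells. NK cells stood at 8.96 and 9.87 CPM. In library 2 the 14 Prph UMIs of B cells came from 2 cells, and B cells without Fscn1 had none.

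Few relatives of the 8 genes were expressed highly enough to test, and those tested differed in direction. A list of relatives for each gene was compared between late and resting cDC1, with 59.6% of all tested genes called between late and resting cDC1 (27.5% higher and 32.1% lower) and a median log2 change of −0.15. Counts of called relatives have to be read against that high background. At the intermediate stage 31% of genes were called (16.5% higher and 14.4% lower), with a median of −0.06. The cDC1 calls are split nearly evenly, 46.1% of them being higher, or 36.6% with library totals alone as the scaling.

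Of 21 other calcium channel subunit genes, 3 were expressed highly enough to test, with 2 higher, 1 lower and a median of 0.94. Cacnb1, another β subunit, rose from 0.543 and 0.795 to 16.1 and 15.2 CPM (log2 difference 4.70, SE 0.47, adjusted p = 1.57e-08). Cacna1e, a pore-forming subunit, fell from 43.5 and 44.9 to 3.44 and 7.14 CPM (log2 difference −2.79). Cacna1s, another pore-forming subunit, rose from 55.1 and 63 to 88.4 and 108 CPM (0.94, SE 0.13, adjusted p = 1.75e-06), and in cDC2 from 24.4 and 29.1 to 157 and 149 (2.69, SE 0.19, adjusted p = 1.03e-10). Cacnb1 was also higher in late cDC2, at 11.5 and 12.2 against 1.87 and 1.32 CPM (log2 difference 3.08, SE 0.78, adjusted p = 0.00385). Of 13 other intermediate filament genes, 4 were tested, with 1 higher, 3 lower and a median of −1.23. Vim, the filament protein of mesenchymal and immune cells, rose from 256 and 253 to 1150 and 1360 CPM (2.51), and the lamin genes Lmna (−1.46), Lmnb1 (−1, SE 0.15) and Lmnb2 (−2.26) fell. Vim was also called in cDC2, with 618 and 519 CPM late against 499 and 437 at rest (0.47, SE 0.15, adjusted p = 0.0187), and the difference between the lineages was not tested.

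Of 14 other organic anion transporter genes only Slco3a1 was tested, and it fell from 103 and 105 to 13.8 and 19.6 CPM (−2.40). Of 17 synaptopodin and actin partner genes, 11 were tested, with 5 higher, 1 lower and a median of 0.38. The actin cross-linker Actn1 rose from 94.1 and 101 to 343 and 341 CPM (2.02) and the co-chaperone Bag3 by 2.15, whereas Zyx, a focal adhesion protein, fell by 0.61. Actn1 was called in late cDC2 too (2.17, SE 0.15, adjusted p = 8.24e-11). Of 28 neural adhesion genes 3 were tested, with 1 higher at under 5 CPM, none lower and a median of 2.48. In cDC2 the called member of this list was Dscam, the closest relative of Dscaml1, named after its values were seen, with 71.6 and 61.2 CPM late against 28 and 24.4 at rest (1.53, SE 0.27, adjusted p = 0.000149). No Dscam UMI was counted in late cDC1. Of 12 tentonin family and mechanically gated channel genes 4 were tested, with 2 higher, 1 lower and a median of 0.83. Tmem63b rose from 6.96 and 7.68 to 57.4 and 68.8 CPM (3.32), the ion channel gene Piezo1 by 0.96, and Tmem150b, a close relative of Tmem150c, fell by 2.66. Of 8 ankyrin repeat relatives of Ankrd33b 2 were tested, with a median of 0.10, and Ankrd44 rose by 0.74.

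Of 28 neuroendocrine and Insm1-linked genes, 6 were tested, with 3 higher, 1 lower and a median of 0.56. Rest, the repressor that keeps neuronal genes silent outside the nervous system, was present and rose from 34.3 and 34.9 to 66.6 and 60.7 CPM (log2 difference 1.08). Kdm1a and Rcor1, subunits of the repressor complex that Rest and Insm1 both use, rose by 0.82 each, and the deacetylase Hdac2 fell by 1.21. Late cDC1 as a class thus held RNA of the 8 genes and of Rest together. In late cDC2 1 of the 6 was higher and none lower, with a median of 0.01. Rest was at 112 and 100 CPM against 76.2 and 75 (0.67, SE 0.18, adjusted p = 0.00601).

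A wider neuronal expression could be judged on few genes. Of 42 pan-neuronal genes, 7 passed the expression filter. In late against resting cDC1, 3 of them were higher and 2 lower, with a median of 0.81. Of all tested genes, 27.5% were called higher and 32.1% lower, with a median of −0.15. Eno2, neuron-specific enolase, rose from 0.0969 and 0.0993 to 44.8 and 40.2 CPM (8.81, SE 0.41). The microtubule-associated Map1b rose from 0.484 and 0.568 to 9.18 and 9.82 CPM (4.35). Stmn1, a microtubule destabilizer also abundant in dividing cells, fell from 309 and 252 to 17.2 and 53.6 CPM (−2.75). At the intermediate stage of cDC1, 2 of the 7 were higher and 1 lower, with a median of 0.20. Eno2 was then at 6.65 and 1.93 CPM (5.35, SE 0.71, adjusted p = 3.82e-06), while Map1b did not pass (1.46, SE 0.89, adjusted p = 0.23). In late cDC2, 3 of the list were higher and 2 lower, with a median of 0.35. Eno2 (6.34, SE 0.74, adjusted p = 4.57e-07) was among those called higher, and Map1b was at 0 in both libraries. Neuronal type is thus a working name for a small set, and 35 of the 42 pan-neuronal genes were too low to test.

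The genes whose levels were most like the mean of the 8 were sought over 14 cell classes (the 6 stages and 8 other types), among 12143 genes with at least 5 CPM in some class. Eno2 was first, with a Pearson r of 0.977 over the 14 classes, followed by Gm10399 (0.974), Nudt17 (0.972), Tmem19 (0.970), Oprd1 (0.964), Scin (0.961), Zmynd15 (0.957), Cd70 (0.955), Tmem39a (0.952) and Cdkn2b (0.952). Oprd1, the δ opioid receptor, stood at 34.4 and 34.8 CPM in late cDC1, and Nudt17 at 269.7 and 247.3. Cd70, the ligand of the T cell receptor CD27, stood at 34.4 and 62.5. The cell cycle inhibitor gene Cdkn2b stood at 29.8 and 29.5 CPM in late cDC1 and at 65.8 and 71.0 in late cDC2. Each of the 8 had an r with the mean of the other 7 between 0.814 for Prph and 0.971 for Ankrd33b. The classes share libraries, and the late ones dominate the r. Because the 8 were picked for their rise in mature cDC1, a high r among them was built in by the choice.

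**Figure D4:**
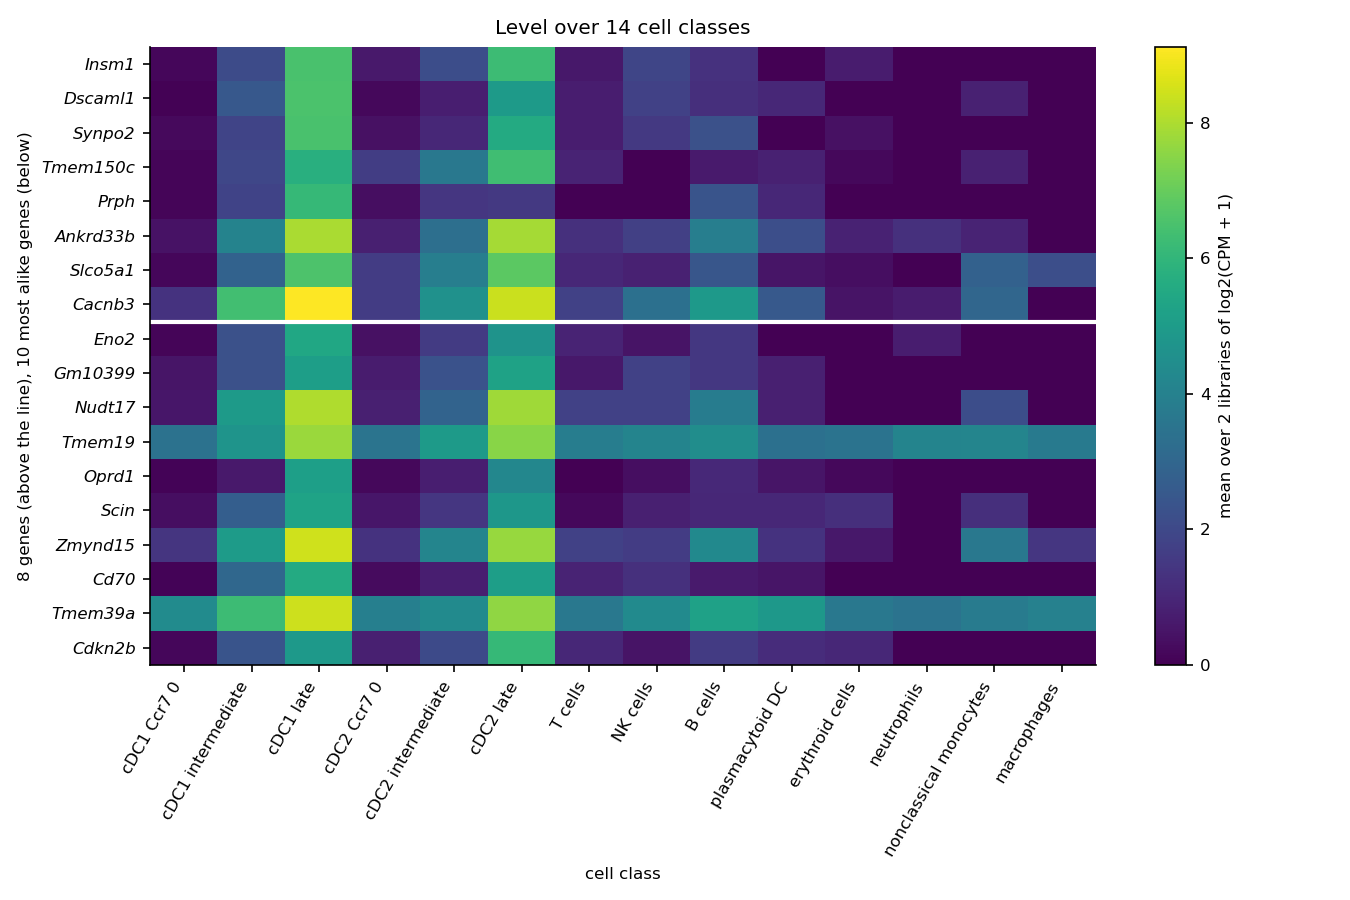
Level of the 8 genes and of the 10 genes most like them over the 14 cell classes, as colour for log2(CPM + 1) averaged over both libraries. The late cDC1 and late cDC2 columns are the brightest in every line but that of Prph, which is dark in late cDC2.

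Since Cacnb3 and Prph are near each other, the genes between them were followed. RefSeq places 25 genes in the 409 kb between them, of which 21 are in the matrix and 10 were tested. In late against resting cDC1, 6 of the 10 were higher and 0 lower, with a median log2 difference of 1.59, where 27.5% of all genes were called higher. Rhebl1 (2.68, SE 0.28, adjusted p = 3.45e-08), a small GTPase of the Rheb family, was among them, with Lmbr1l (2.09) and the histone methyltransferase gene Kmt2d (1.09). Tuba1a rose from 40.9 and 36.7 to 661 and 551.8 CPM (4.18) and Tuba1c from 59.4 and 56.0 to 378.7 and 371.4 (2.91). Tuba1a, Tuba1b and Tuba1c are near-identical tubulin genes whose reads the counting may not separate, so their single values are uncertain. Arf3 (0.20, adjusted p = 0.228), Ddx23 (0.20, adjusted p = 0.398), Prkag1 (−0.16, adjusted p = 0.578) and Tuba1b (0.07, adjusted p = 0.716) did not pass, so called and uncalled genes were mixed along the stretch.

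Of the 3 genes on each outer side, only Adcy6 was tested. Adcy6, an adenylyl cyclase that makes cyclic AMP, rose from 0.562 and 0.412 to 128.5 and 99.1 CPM in late cDC1 (8.06, SE 0.24, adjusted p = 5.71e-18). It was also higher in late cDC2 (5.85, SE 0.49, adjusted p = 2.33e-09). In late cDC2, 3 of the 10 genes between Cacnb3 and Prph were higher, where 16.7% of all genes were called higher, namely Tuba1a (2.66), Rhebl1 (2.14, adjusted p = 0.00978) and Tuba1c (1.39).

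**Figure D5:**
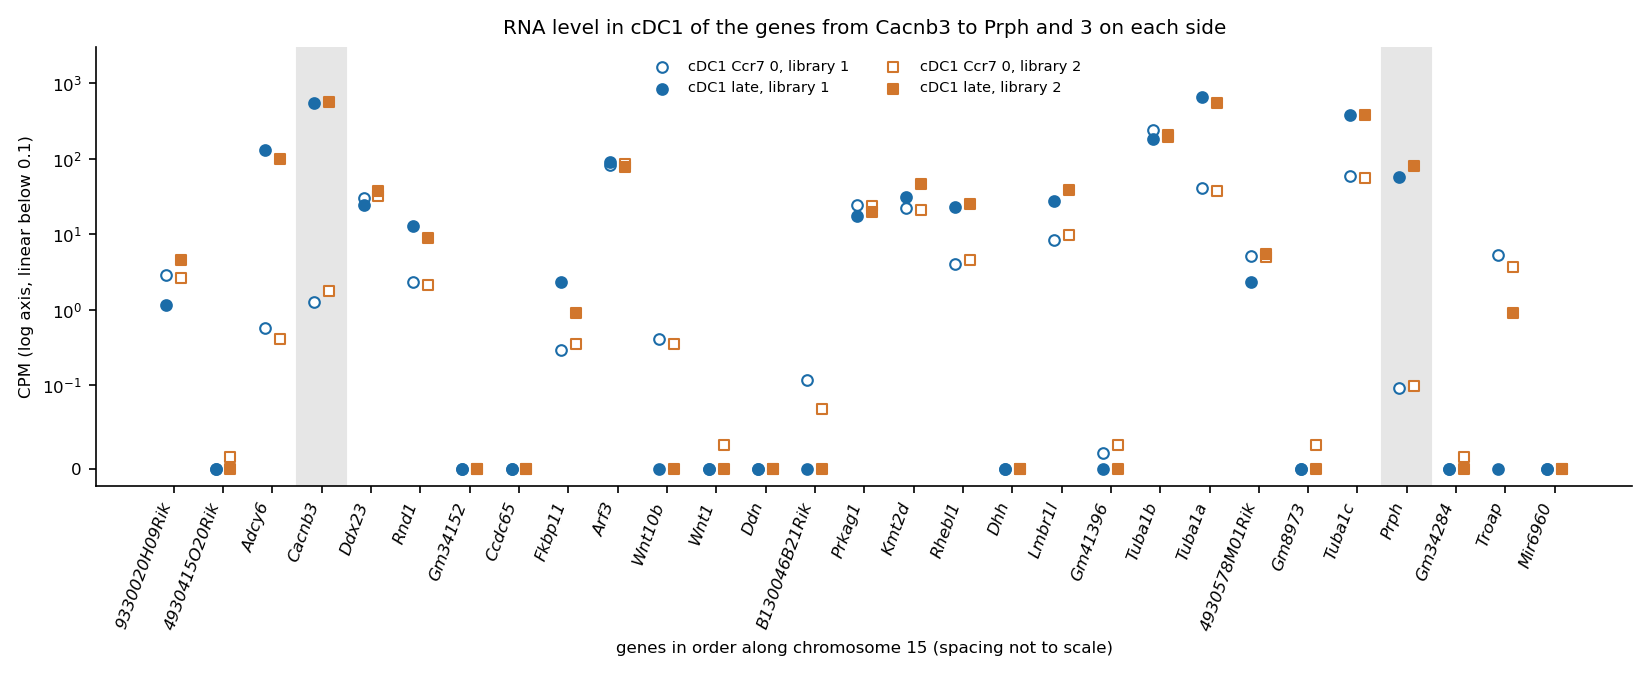
RNA level in cDC1 (CPM, log axis, linear below 0.1) of Cacnb3, Prph, the genes between them and 3 on each outer side that are in the matrix, in order along the chromosome with spacing not to scale. Open symbols are resting and filled symbols late cDC1, with 1 symbol per library, and grey bands mark Cacnb3 and Prph. Adcy6, Tuba1a and Tuba1c have late levels far above their resting ones in both libraries, while Arf3 and Ddx23 lie at the same height in both stages.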

How the data were processed

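The files used were the deposited matrix of whole-number UMI counts per gene and per antibody, with barcode suffixes 1 and 2 for the libraries. It was made with Cell Ranger 3.1.0 per the file headers, and the submitters' processing notes also name STAR, Seurat 3.1.4 and mm10. The counts hold no correction for free RNA that these sources state.

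Barcodes under 500 genes, under 1000 RNA UMIs or with at least 10% mitochondrial UMIs were dropped, and 546 (4.3%) and 1064 (6.24%) doublets were removed with Scrublet (scanpy 1.11.5, Python 3.11.15). Counts were summed per lineage, stage and library, 12 sums in all, and tested with edgeR 4.0.16 (R 4.3.3; TMM, filterByExpr, quasi-likelihood, library as block), without Ccr7 and Fscn1, which set the stages. All 8 genes passed the filter, Prph through late cDC1 alone; on the cDC2 sums alone 7 passed. A gene was called at an adjusted p under 0.05. A simulation drew counts from 1 profile pooled over all 12 sums, with a fixed dispersion of 0.05 and no library effect. For late against resting cDC2 (8976 genes), 87.5% of genes raised 4-fold and 14% of those raised 2-fold were recovered. Of unchanged genes 0.0455% were called. These rates describe that setting, not the measured counts. Library deviations of the stages correlated with r between −0.01 and 0.25 (median 0.08 over 15 pairs, 3 above 0.1). The block was kept because all classes of a library come from the same loaded cells.

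The genes, the relatives lists and the stages were chosen with earlier results of these data known. Relatives were named when called and among the 5 largest changes of their list with at least 5 CPM, and a few such genes are not reported here. Genes most like the 8 were the 10 with the highest r. Genes between 2 members under 1 Mb apart and 3 on each side were also followed. Alternatives covered scaling, filter, DESeq2 1.42.0, gates, stages, doublets, depth, block and each library left out.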

Additional observations from a re-analysis of the deposited data

How the results depend on the processing

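With 2 libraries a stage, leaving out 1 leaves no spread to test, so these are values without a test. Over them the median share of late cDC1 positive for a member ranged from 28.4% to 34.9% (32.4% with both) and the median level from 84.8 to 99.8 CPM (92.1 with both). Prph had no value in cDC2 without library 2, since library 1 had no Prph UMI in intermediate or late cDC2. The median share fell to 22.1% at 3000 UMIs and to 16% at 2000 UMIs per cell, as thinning removes UMIs, and the number of genes per late cDC1 from 2.37 to 1.89 at 2000 UMIs. The median level was 80.8 CPM with a lineage gate of 3 UMIs and 3-fold, and 68.7 with doublets kept. The cause was not tested. Genes called between intermediate and resting cDC2 numbered 962, 570 with that stricter gate and 423 without cDC2 holding XCR1 or Xcr1, both with fewer cells.

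Without the replicate block, 2697 genes were called in late against resting cDC2 (2843 with it), 742 in intermediate against resting and 1742 in late against intermediate, and no call of the 7 members tested in cDC2 changed. The cDC2 set without XCR1 or Xcr1 was chosen after seeing the data. Among the cDC2 tests of these 7 genes, calls changed for Insm1 alone, which passed at the intermediate stage with DESeq2 (0.00899), no filter (0.0148), the stricter late stage (0.0343) and doublets kept (0.0244). No member changed direction. Scaling by library totals alone put the median of all genes at −0.36 in late cDC1 (−0.15 otherwise) and −0.26 in late cDC2 (−0.07 otherwise). The share of calls that were higher went from 57.2% to 44.7% in late against intermediate cDC2, from 69.6% to 57% in intermediate against resting cDC2 and from 53.4% to 33.7% in intermediate cDC1, where DESeq2 gave 64.4%. Prph had 4 UMIs and Dscaml1 2 in all resting cDC2, the limit of depth here.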
